A study of Mus musculus with 12 samples.

Results

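The phase II conjugation enzyme genes of the mouse kidney were followed across 3 groups of mice. Of the 40 that were measurable, 0 passed the edgeR test for a change after cannabidiol. After scaling between libraries, 4 GST genes were higher in every mouse given the larger dose than in every control mouse (2.67% of all genes). By library totals alone Gstt2, Gstt3 and, narrowly, Gstm1 overlapped. The other gene, Gstp3, had few counts. Phase II enzymes attach a bulky water-soluble group to a drug, hormone or metabolite so that it can be excreted in urine or bile. UDP-glucuronosyltransferases (UGT) transfer glucuronic acid, glutathione S-transferases (GST) join the tripeptide glutathione to electrophilic compounds, and sulfotransferases (SULT) transfer sulfate from the donor PAPS. In the kidney these enzymes are known mainly from the proximal tubule, where many conjugates are also taken up from blood and passed into urine.

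The genes were chosen by symbol: protein-coding genes named Ugt, Gst or Sult followed by a class, with at least 10 counts in 4 or more of the 12 libraries. Of 57180 genes in the files, 67 fitted the name pattern and 40 reached that level. They were 13 of 22 UGT genes, 21 of 24 GST genes and 6 of 21 SULT genes, and all 40 passed the filter on low counts that preceded the test. Among the 27 genes left out, 7 had no count in any library, and 6 of these were Sult2a genes, which encode steroid and bile acid sulfotransferases. The other absent gene was Ugt2a1. Just inside the limit stood Sult2b1 and Ugt1a2, each with 10 counts or more in 6 libraries. Just outside it, Ugt1a5 reached 9 counts and Gsta13, Sult2a3 and Sult6b1 reached 7 in their highest library.

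The mice were adult males of the inbred strain C57BL/6J, and no group carried a transgene or a deletion. For 28 days each mouse had 1 intraperitoneal injection a day. The control group (4 mice) was given saline with the detergent Tween 80, and the other groups (4 mice each) were given cannabidiol (CBD), a cannabinoid of Cannabis sativa, in the same vehicle at 10 or 20 mg/kg body weight. Kidney tissue was used for poly(A) RNA-Seq with 1 library per mouse, so that fewer cells of a type and less RNA per cell cannot be told apart.

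The libraries held 15417867 to 23532088 counts on genes. Mitochondrially encoded genes took 3.53% to 23.4% of them. In 4 libraries this share was under 10%: control mouse 2, mice 1 and 3 of the 10 mg/kg group and mouse 3 of the 20 mg/kg group. The kidney markers checked were present in each group, with proximal tubule genes at the highest summed levels. A level below is in CPM, a gene's count relative to the size of its library after scaling by TMM (trimmed mean of M values). Log2 fold changes and p-values are from the quasi-likelihood test of edgeR over 17163 genes, adjusted by the Benjamini-Hochberg method with a limit of 0.1.

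Each family was dominated by a few genes. Levels between genes were compared as CPM per kb of exon, averaged over the 12 libraries. Sult1d1, a sulfotransferase of catecholamines and other phenols, was highest at 378 CPM per kb and supplied 91.5% of the summed SULT level in CPM. Gstm1, a mu class glutathione transferase, followed at 229.8 and supplied 28.1% of the GST sum. Ugt3a1, of a UGT branch whose human members use sugars other than glucuronic acid, had 188 CPM per kb and 51.2% of the UGT sum. Ugt2b38 (170), the alpha class gene Gsta2 (129) and the theta class gene Gstt2 (61.3) came next. At the other end, Sult2b1, whose product sulfates cholesterol, had 0.128 CPM per kb.

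**Figure D1:**
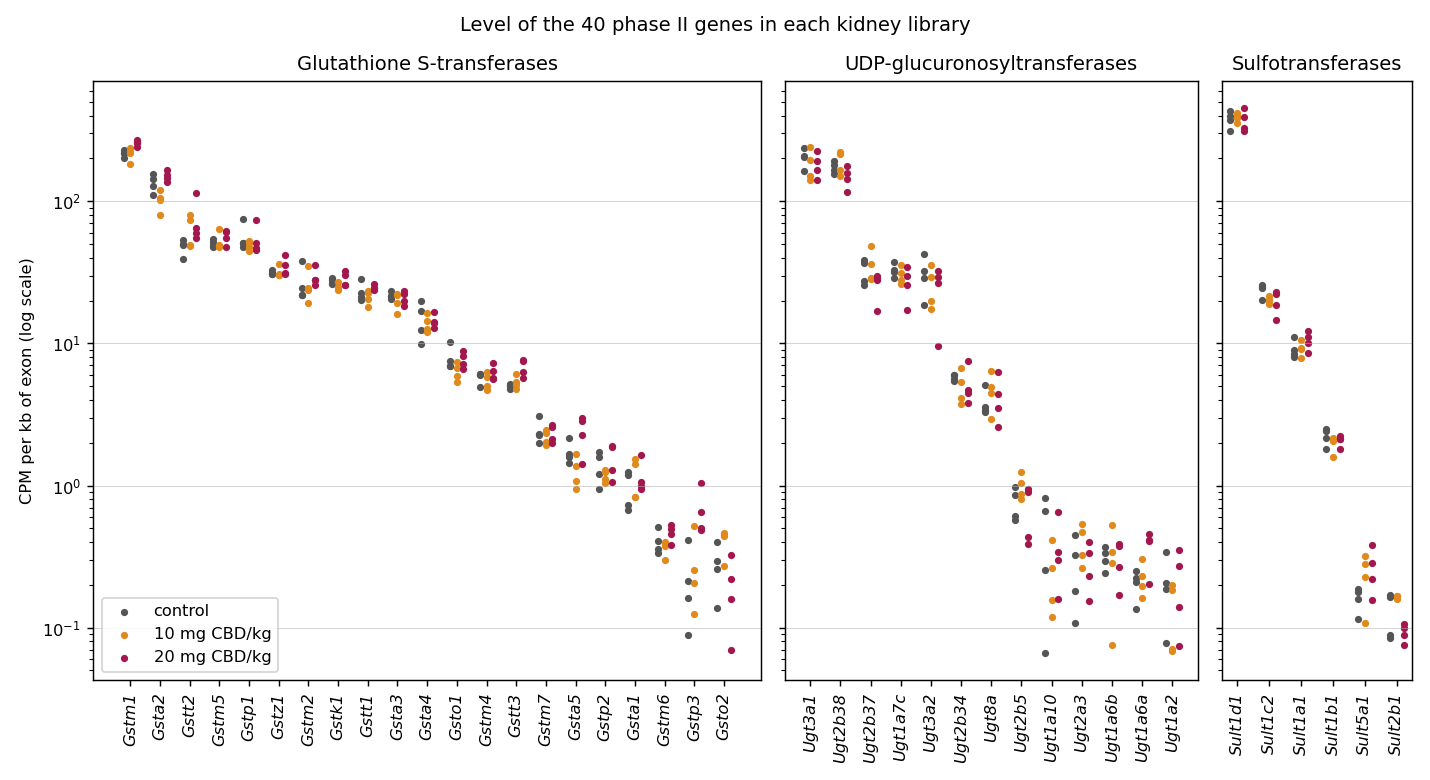
Level of each of the 40 genes in CPM per kb of exon on a log scale, with 1 point per library and the 3 groups set side by side in colour. Genes are ordered by mean level within each family, from 229.8 to 0.290 for GST, from 188 to 0.181 for UGT and from 378 to 0.128 for SULT.

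Some of these levels depend on how reads of near-identical genes were assigned. The Ugt1a genes use different first exons but the same remaining exons, and reads in shared exons were set aside as ambiguous. Over all genes of a library, ambiguous reads were 4.72% to 5.29% of the reads set to a gene, to no gene or as ambiguous. For Ugt1a7c, the highest of the 5 Ugt1a members, the level was 29.9 CPM per kb over all its exons and 131 CPM per kb over exons that no other gene uses. Exact stretches of 100 bases shared with transcripts of other genes covered 80.8% of the Gsta1 transcript, 33.3% of Gsta2, 41.9% of Gsta5, 47.3% of Gstp1, 23.8% of Gstt3 and 24.2% of Ugt2b38. The counts of these genes are therefore uncertain, while Gstt2, Gstp3, Ugt3a1 and Sult1d1 shared no such stretch.

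Letters of known regulatory motifs were searched on both strands in the 250 bases upstream of each gene's canonical start in the GRCm39 assembly, beside the same windows of 21685 protein-coding genes. The sequences below are shown because they hold the motifs of the glutathione transferase genes named in the results. The capitals mark the motif and both are written 5′ to 3′ on the gene's strand.
Gstt2: cgagcagagcCACGTGcggtgcaggg
Gstm5: caccgcccacTGACCACGC
The Gstt2 stretch, at chr10:75671376-75671401 on the minus strand, holds the E-box CACGTG. The Gstm5 stretch, at chr3:107803118-107803136 on the plus strand, holds TGACNNNGC, the core of the antioxidant response element through which the factor NRF2 acts.

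The antioxidant core was in 2 members (5%), Gsta3 and Gstm5, against 9.69% of all windows. The E-box was in Gstt2 alone (2.5% of members, against 6.28%). The core of the xenobiotic response element, GCGTG, was in 4 members (10%) against 31.2%, and overlapped the antioxidant core in Gstm5. The D-box letters TTATGTAA or TTACGTAA were in 0 members and in 0.941% of all windows.

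As sums over each family, GST transcripts were higher in the mice given 20 mg/kg. The summed GST level was 1964 ± 81.5 CPM in the control group, 1928 ± 51.6 CPM at 10 mg/kg and 2281 ± 227 CPM at 20 mg/kg (SD, n = 4). The mice given 20 mg/kg were at 2139, 2125, 2611 and 2250 CPM, above every control mouse (1871 to 2058) and every mouse given 10 mg/kg (1885 to 1990). The highest of these values was in mouse 3, whose library had 5.54% mitochondrial counts. The sum is a description of the members and was not tested. Its separation from the control mice holds after TMM scaling and is lost by library totals alone.

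The other families overlapped between all groups. The summed UGT level was 1422 ± 144 CPM in the control group, 1362 ± 260 CPM at 10 mg/kg and 1239 ± 244 CPM at 20 mg/kg. The summed SULT level was 1037 ± 133 CPM, 1057 ± 70.1 CPM and 1013 ± 165 CPM in the same order.

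**Figure D2:**
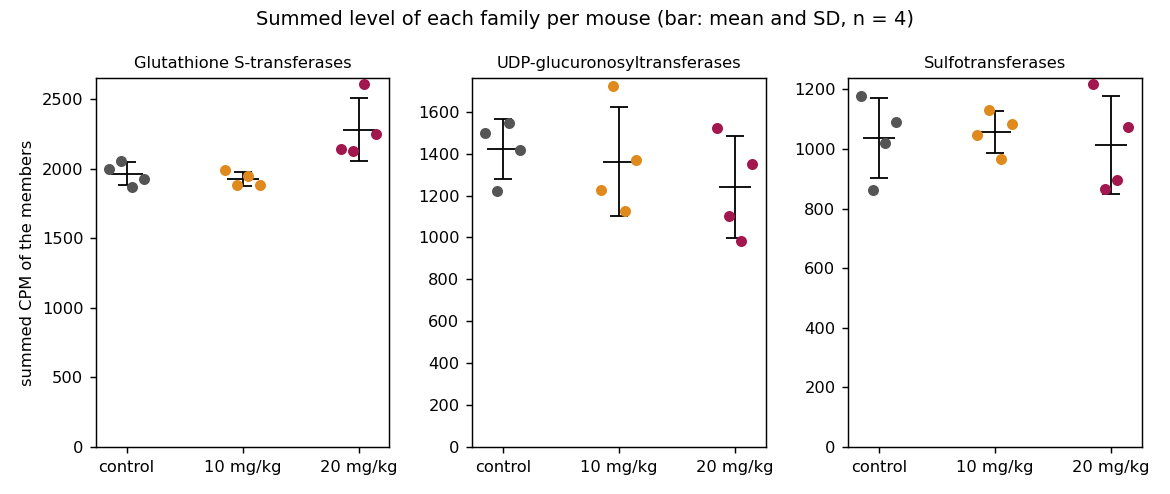
Summed CPM of the 21 GST, 13 UGT and 6 SULT members in each mouse, with the group mean and SD (n = 4). For GST the mice given 20 mg/kg lie at 2125 CPM or more and all others at 2058 CPM or less, while the UGT and SULT groups overlap.

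The first comparison asked which members differed between the mice given 10 mg CBD/kg and the control group. By edgeR 0 of 40 members passed (0.0291% of all genes did), and 0 passed by DESeq2 (0.233% of all genes) and by limma-voom (0.0291%). At an unadjusted p under 0.05 there was 1 lower member, Gsta2 (2.34% of all genes were lower), and 0 were higher (3.33%). No member had non-overlapping groups (3.19% of all genes). The median log2 fold change was -0.07 over the members and 0.01 over all genes. Of the GST genes 14 of 21 were below zero, beside 8185 of the 17163 genes tested. For 31 of the 40 members the 95% interval of the change lay within 2-fold in either direction.

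The second comparison set the mice given 20 mg CBD/kg against the same control mice. Again 0 of 40 members passed by edgeR (0.303% of all genes), by DESeq2 (1.06%) and by limma-voom (0.28%). Without a filter on low counts Gstp3 and Gstt2 passed (1.04% of the genes then tested). At an unadjusted p under 0.05, 4 members were higher (4.92% of all genes) and 0 were lower (3.53%). In TMM-scaled CPM the groups did not overlap for 4 members, all higher in the treated mice and all GST genes, against 2.67% of all genes. None of this separation was kept by library totals alone except for Gstp3, which reached the filter on low counts partly through this dose group. In the other direction, 0 were lower in every treated mouse (2.63%). The median log2 fold change was 0.15 for GST, -0.17 for UGT and -0.06 for SULT, beside 0.01 over all genes. For 29 members the 95% interval lay within 2-fold.

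The doses were also compared directly. Of the 40 members, 0 passed by edgeR (0% of all genes), by DESeq2 (0.0699%) and by limma-voom (0%). Without a filter on low counts Gsta2 passed (0.64% of the genes then tested). At an unadjusted p under 0.05, 6 members were higher at 20 mg/kg (3.47% of all genes) and 3 were lower (2.84%). The doses did not overlap for 3 members that were higher at 20 mg/kg (1.7% of all genes) and for 1 that was lower (1.4%), Sult2b1. Sult2b1 reached the count minimum mainly through the 10 mg/kg mice, the group where it was high, so its difference carries no weight. Of the GST genes 19 of 21 had a positive log2 fold change, beside 8481 of the 17163 genes tested. The median was 0.20 for GST against -0.003 over all genes. Some GST genes share stretches of transcript, so these are not all separate measurements.

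When the average of the treated groups was set against the control group, 0 members passed by edgeR (0.14% of all genes), by DESeq2 (0.792%) and by limma-voom (0.146%). The 3 with an unadjusted p under 0.05 were Gstp3, Gstt2 and Gstt3, all higher (4.09% of all genes), and 0 were lower (2.95%). No member had all 8 treated mice on 1 side of the control mice (0.862% of all genes). Gstt2 passed without a filter on low counts (0.982% of the genes then tested) and with the mitochondrial share as a term (1.61% of all genes).

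**Figure D3:**
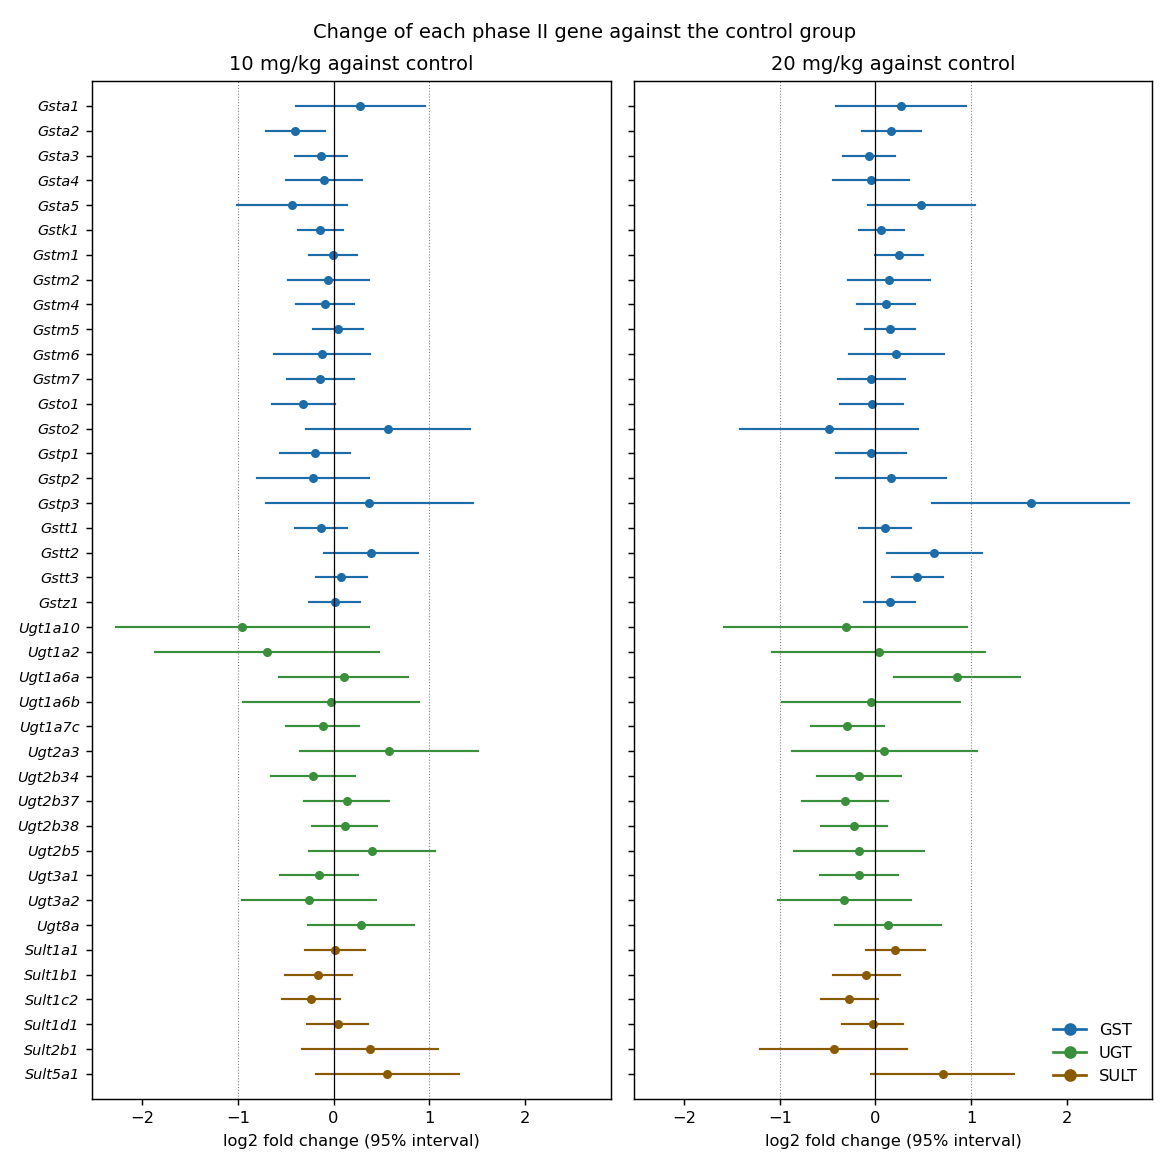
Log2 fold change of each of the 40 genes against the control group at each dose, with the 95% interval from edgeR as a bar and dotted lines at 2-fold in both directions. At 10 mg/kg the interval crosses zero for every gene but Gsta2, and at 20 mg/kg for every gene but Gstp3, Gstt2, Gstt3 and Ugt1a6a.

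The theta class genes Gstt2 and Gstt3 lie in 1 cluster on chromosome 10 (GRCm39, 75666948 to 75673258 and 75609940 to 75617256, both on the minus strand). Theta enzymes are known for dehalogenating small halogenated compounds. Gstt3 was at 19.5, 20.1, 19.5 and 18.4 CPM in the control mice, at 18.4, 19.6, 20.6 and 23.6 at 10 mg/kg and at 28.8, 22.2, 29.5 and 24.4 at 20 mg/kg. Every mouse given 20 mg/kg was above every control mouse, and the lowest of them was below the highest mouse given 10 mg/kg. At 20 mg/kg the log2 fold change was 0.44 ± 0.13 (SE), a 1.35-fold level with a 95% interval of 1.12 to 1.63, and the adjusted p was 0.320. At 10 mg/kg it was 0.08 ± 0.13.

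Gstt2 was at 242, 259, 245 and 191 CPM in the control mice, at 361, 236, 395 and 239.8 at 10 mg/kg and at 269, 292, 560 and 317 at 20 mg/kg. The mice given 20 mg/kg were again all above the control mice, with mouse 3 far above the other three. Its log2 fold change at 20 mg/kg was 0.62 ± 0.23 (adjusted p = 0.475). Without mouse 3 of that group it was 0.32, and without the 4 libraries under 10% mitochondrial counts it was 0.37. At 10 mg/kg, where both mice with a low mitochondrial share had the higher levels, it was 0.39 ± 0.23 (adjusted p = 0.886).

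The third member of the class, Gstt1, is named after its values were seen. It did not overlap between the doses, at 51.2 to 66.8 CPM with 10 mg/kg and at 67.9 to 74.5 CPM with 20 mg/kg. Against the control group (57.6 to 81.3 CPM) it overlapped at both doses.

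Gstm1, on chromosome 3 (107919380 to 107925380, minus strand), was the most abundant GST and is a general detoxifying enzyme of the mu class. It was at 549, 581, 503 and 547 CPM in the control mice, at 551, 564, 462 and 592 at 10 mg/kg and at 654, 682, 609 and 643 at 20 mg/kg. The mice given 20 mg/kg stood above all 8 others. The log2 fold change was 0.25 ± 0.12 against the control group (adjusted p = 0.601) and 0.25 ± 0.12 against 10 mg/kg (adjusted p = 0.785), and -0.01 ± 0.12 at 10 mg/kg against the control group. Gstm5, of the same class, was at 60.7 to 68.9, 61.2 to 82.1 and 61.3 to 79.0 CPM in the 3 groups, with log2 fold changes of 0.05 ± 0.12 and 0.15 ± 0.12.

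Of the alpha class, known for reducing lipid peroxides, Gsta2 (chromosome 9, 78238292 to 78263077, minus strand) was at 305, 275, 236 and 333 CPM in the control mice. It was at 226, 255, 172 and 218 CPM at 10 mg/kg and at 312, 291, 358 and 327 CPM at 20 mg/kg. The doses did not overlap, and the control mice spanned the space between them. The log2 fold change was -0.40 ± 0.15 at 10 mg/kg (adjusted p = 0.812), 0.17 ± 0.14 at 20 mg/kg (adjusted p = 0.825) and 0.57 ± 0.15 between the doses (adjusted p = 0.758). Of the 3 groups, the one given 10 mg/kg was thus the lowest, and the levels did not follow the order of the doses.

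The neighbouring Gsta5 had the same order of group means at a far lower level. It had 58, 67, 42 and 43 counts in the control mice, 46, 24, 31 and 42 at 10 mg/kg and 72, 35, 56 and 78 at 20 mg/kg. The groups overlapped. Between the doses the log2 fold change was 0.91 ± 0.27 (adjusted p = 0.758), against -0.43 ± 0.27 and 0.48 ± 0.26 relative to the control group at 10 and 20 mg/kg. Because Gsta2 and Gsta5 share stretches of transcript, their counts are not separate measurements in every part.

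The 3 pi class members included the sparse gene Gstp3 and the abundant gene Gstp1. Gstp3 had 5, 8, 10 and 18 counts in the control mice, 11, 9, 27 and 5 at 10 mg/kg and 26, 19, 41 and 21 at 20 mg/kg. In CPM the mice given 20 mg/kg (1.14 to 2.46) were above all control mice (0.210 to 0.979). Gstp3 had 10 counts or more in 8 libraries, among them every mouse given 20 mg/kg. Some mice of the other groups also had 10 counts or more. The edgeR filter on low counts, which weighs counts against library size, was reached partly through the group where Gstp3 was high. Its separation therefore carries no weight. The log2 fold change of 1.62 ± 0.48, a 3.08-fold level with a 95% interval of 1.51 to 6.27, was the largest of the 40 members at that dose and had an adjusted p of 0.344. At 10 mg/kg it was 0.37 ± 0.51. Gstp1, the main pi enzyme, was at 77.3 to 122.5, 72.7 to 85.8 and 74.1 to 120.7 CPM in the 3 groups, with log2 fold changes of -0.19 ± 0.17 and -0.05 ± 0.17.

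Gstz1, which also acts as an isomerase in tyrosine breakdown, was at 331 to 351 CPM in the control mice. It was at 323 to 386 CPM at 10 mg/kg and at 331 to 448 CPM at 20 mg/kg. The log2 fold changes were 0.02 ± 0.13 and 0.15 ± 0.13, and the groups overlapped.

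The exact two-sided permutation test over 4 against 4 mice allows no p below 0.0286. Any gene whose groups do not overlap has that value, so for Gstt2, Gstt3, Gstm1 and Gstp3 at 20 mg/kg it restates the separation and adds no support.

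**Figure D4:**
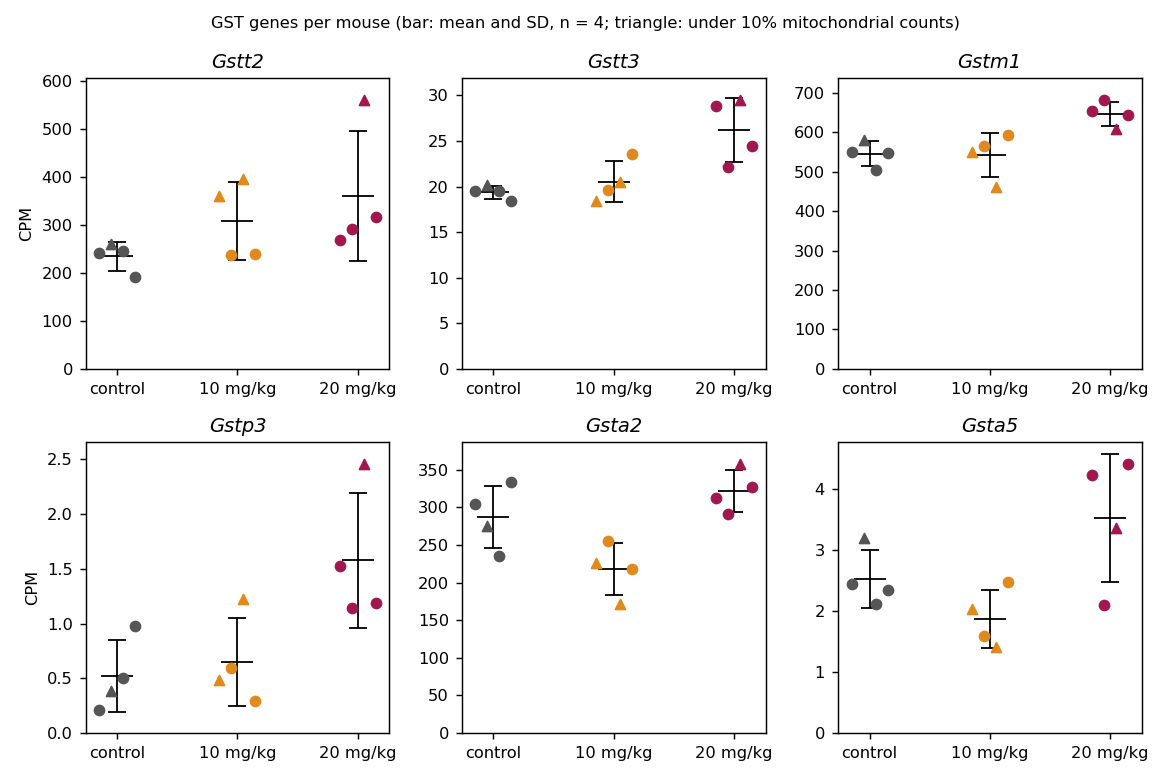
CPM of 6 GST genes in each mouse, with the group mean and SD (n = 4) and triangles for the 4 libraries under 10% mitochondrial counts. At 20 mg/kg all mice lie above the control mice for Gstt2, Gstt3, Gstm1 and Gstp3, and Gsta2 is lowest at 10 mg/kg.

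Among the UGT genes, Ugt3a1 (chromosome 15, 9335636 to 9371564, plus strand) was at 762, 595, 857 and 740 CPM in the control mice. It was at 515, 878, 550 and 709 CPM at 10 mg/kg and at 817, 605, 511 and 693 CPM at 20 mg/kg. The groups overlapped widely, with log2 fold changes of -0.16 ± 0.19 and -0.17 ± 0.19. Its neighbour Ugt3a2 ranged from 50.04 to 114.0 CPM in the control mice, from 46.9 to 95.2 at 10 mg/kg and from 25.5 to 86.9 at 20 mg/kg. The log2 fold changes were -0.26 ± 0.33 and -0.32 ± 0.33.

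Some members were ordered within each group by a low mitochondrial share. Over all 40 members this was no more often than for genes in general, but the families differed. In each group, every library under 10% mitochondrial counts was below every other library for Ugt3a1, Ugt3a2, Ugt1a6a and Ugt8a, and above every other library for Gstt2 and Gstp1. These were 4 of 40 members (10%) on the low side and 2 (5%) on the high side, beside 12.3% and 12.4% of all genes tested. In the control group this rests on mouse 2 alone and at 20 mg/kg on mouse 3 alone. All 4 on the low side were UGT genes, 30.8% of the 13 UGT members against 12.3% of all genes. Both on the high side were GST genes, 9.52% of the 21 GST members against 12.4%. Ugt1a6a and Ugt8a are named after their values were seen, and Ugt8a makes the galactosylceramide of myelin rather than a drug conjugate. Without these 4 libraries 0 members passed at 10 mg/kg (0.148% of all genes then tested), at 20 mg/kg (0.611%), between the doses (0%) and for the treated groups together (0.383%). With the share as a term in the edgeR fit, 4 members passed at 20 mg/kg. Gstp3, Gstt2 and Gstt3 were then higher, with log2 fold changes of 1.73, 0.72 and 0.45, and Ugt3a2 was lower, at -0.65. That fit called 8.08% of all genes at 20 mg/kg.

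**Figure D5:**
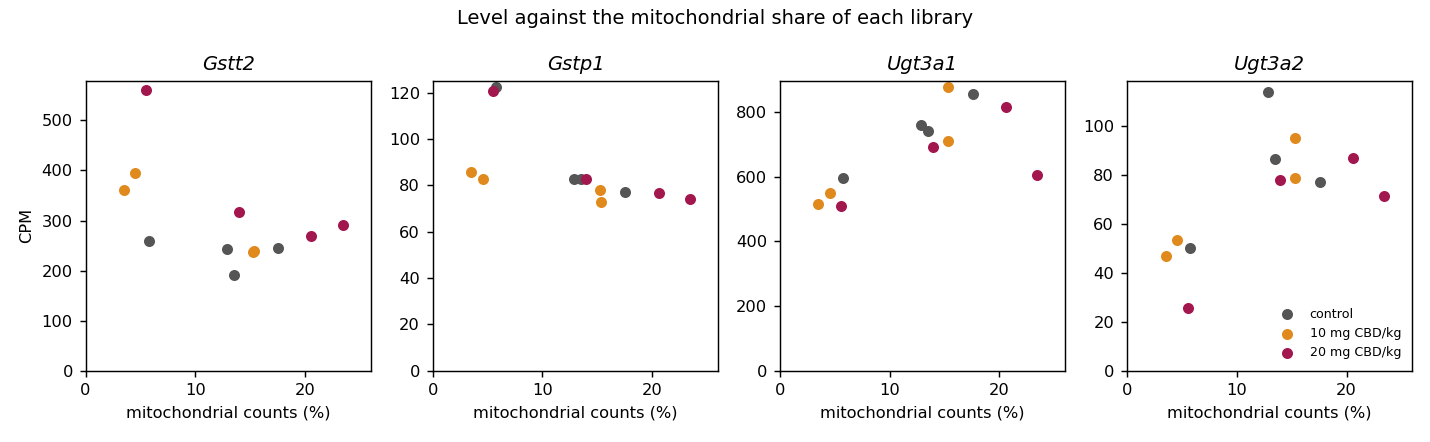
CPM of 4 genes (vertical axis) against the percentage of a library's counts on mitochondrially encoded genes (horizontal axis), with 1 point per library. The 4 libraries under 10% hold the highest Gstt2 and Gstp1 levels and the lowest Ugt3a1 and Ugt3a2 levels of their own group.

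The Ugt2b genes, which glucuronidate steroids and many drugs, form a cluster on chromosome 5. Ugt2b38 (87557801 to 87572062, minus strand) was at 365, 313, 342 and 293 CPM in the control mice, at 420, 406, 283 and 315 at 10 mg/kg and at 333, 218, 272 and 300.2 at 20 mg/kg. All 4 Ugt2b members had a negative log2 fold change at 20 mg/kg, from -0.32 to -0.17, with intervals that included zero. Ugt2b37 was at 48.6 to 73.3 CPM in the control mice, 54.0 to 91.5 at 10 mg/kg and 31.7 to 56.5 at 20 mg/kg, with log2 fold changes of 0.14 ± 0.21 and -0.32 ± 0.21. Ugt2b34 was at 23.7 to 26.1, 16.2 to 29.0 and 16.4 to 32.5 CPM, with -0.21 ± 0.21 and -0.17 ± 0.21.

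In the Ugt1a locus, whose products conjugate phenols and bilirubin, Ugt1a7c was at 123 to 160 CPM in the control mice, 111 to 153 at 10 mg/kg and 73.5 to 146 at 20 mg/kg. The log2 fold changes were -0.11 ± 0.18 and -0.30 ± 0.18. Ugt1a6a had 28, 16, 25 and 26 counts in the control mice, 25, 26, 20 and 22 at 10 mg/kg and 39, 43, 19 and 41 at 20 mg/kg. Mouse 3 of the 20 mg/kg group lay within the control range and the other three above it. The log2 fold change at 20 mg/kg was 0.85 ± 0.31 (adjusted p = 0.462), and 98.4% of the Ugt1a6a transcript was shared with other genes in stretches of 100 bases.

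Against the control group all 6 SULT genes overlapped at both doses. Sult1d1 (chromosome 5, 87702504 to 87716933, minus strand) was at 1078, 779, 927 and 996 CPM in the control mice, at 962, 1048, 888 and 992 at 10 mg/kg and at 1129, 779, 815 and 984 at 20 mg/kg. Its log2 fold changes were 0.04 ± 0.15 and -0.03 ± 0.15, with a 95% interval of 0.785 to 1.22-fold at 20 mg/kg. Sult1c2 was at 48.3 to 61.9 CPM in the control mice, 45.4 to 52.1 at 10 mg/kg and 35.1 to 55.8 at 20 mg/kg. Its log2 fold changes were -0.24 ± 0.14 and -0.27 ± 0.14 (adjusted p = 0.889 and 0.641).

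Sult1a1, the phenol sulfotransferase, had log2 fold changes of 0.02 ± 0.15 and 0.21 ± 0.15, and Sult1b1, which sulfates thyroid hormone, had -0.16 ± 0.16 and -0.10 ± 0.16. Sult2b1, named after its values were seen, had 15, 10, 14 and 11 counts at 10 mg/kg and 6, 7, 5 and 7 at 20 mg/kg. The control mice had 8, 14, 7 and 12 counts and overlapped both doses. With 10 counts or more in all 4 mice given 10 mg/kg and in 2 others, it was kept mainly through the group where it was high, and nothing is read from its difference.

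Genes that supply the donors of the 3 reactions did not pass the test at either dose. At 20 mg/kg, 0 of 5 tested genes for UDP-glucuronic acid, 0 of 7 for glutathione and 0 of 8 for PAPS passed, with median log2 fold changes of 0.02, -0.04 and -0.11. At an unadjusted p under 0.05 these lists held 0, 1 and 1 genes, all lower. They were Ggct, which breaks down gamma-glutamyl peptides (-0.38 ± 0.11, adjusted p = 0.342), and the sulfate transporter gene Slc26a1 (-0.48 ± 0.19, adjusted p = 0.503). In the same way 0 of 15 other phase II and related enzymes, 0 of 8 deconjugating enzymes and 0 of 9 conjugate transporters passed at 20 mg/kg, with 2, 0 and 0 at an unadjusted p under 0.05. The 2 were the microsomal transferase Mgst1 (0.55 ± 0.17, adjusted p = 0.364) and the acetyltransferase Nat8 (0.51 ± 0.22, adjusted p = 0.535), which finishes mercapturic acids. At 10 mg/kg no gene of these 6 lists passed, and 0, 0, 0, 2, 1 and 2 had an unadjusted p under 0.05. Of the other phase II enzymes 1 was higher and 1 lower, the deconjugating enzyme was higher and both transporters were lower. Over all genes tested, 5.67% had such a p at 10 mg/kg and 8.45% at 20 mg/kg.

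Among 13 tested receptors and factors of the response to foreign compounds, Dbp passed at both doses and Nfil3 at 20 mg/kg. Of all genes tested, 0.0291% passed at 10 mg/kg and 0.303% at 20 mg/kg. Dbp, a PAR bZIP factor of the circadian clock output, was at 1.43 to 2.92 CPM in the control mice, 12.9 to 19.6 at 10 mg/kg and 22.1 to 26.9 at 20 mg/kg. It rose by 2.75 ± 0.21 and 3.35 ± 0.21 on the log2 scale. Nfil3, a repressor that binds the same D-box, was at 7.56 to 10.4, 3.79 to 5.97 and 3.05 to 4.20 CPM, and its log2 fold change was -1.30 ± 0.19 at 20 mg/kg (adjusted p = 0.0144) and -0.98 ± 0.19 at 10 mg/kg (adjusted p = 0.202). The other tested factors, among them Nfe2l2 (NRF2), Ahr, Nr1i2 (PXR), Ppara and Hnf4a, did not pass at either dose.

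Target genes of these factors outside the 3 families gave 0 of 11 for NRF2 and 0 of 4 for AhR at both doses. At 20 mg/kg, 1 NRF2 target had an unadjusted p under 0.05 and was lower, and of the AhR targets 1 was higher and 1 lower. Of all genes tested, 4.92% were higher and 3.53% lower at such a p. Of the CAR and PXR targets 3 of 10 passed the filter on low counts, and at 20 mg/kg 2 of these had an unadjusted p under 0.05, both higher. Cyp2b10, a classical CAR target, had log2 fold changes of 1.13 at 10 mg/kg and 1.66 ± 0.56 at 20 mg/kg and did not pass (adjusted p = 0.870 and 0.419). Alas1, the first enzyme of heme synthesis, passed at 20 mg/kg with 0.72 ± 0.14 (adjusted p = 0.0567). It was at 55.8 to 72.1 CPM in the control mice and at 97.8 to 120.2 CPM at 20 mg/kg.

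Some cell type markers, though not those of every segment, also differed between the groups. The summed level of 8 markers of the S1 and S2 proximal tubule was 8045 to 10373 CPM in the control mice, 6551 to 8531 at 10 mg/kg and 6227 to 7552 at 20 mg/kg. Of these, Slc5a2 passed at 20 mg/kg, with a log2 fold change of -0.61 ± 0.12 (adjusted p = 0.0820). The 6 markers of the S3 proximal tubule summed to 6188 to 7274, 6960 to 9463 and 5771 to 7766 CPM, with 0 passing. For the 6 adipocyte markers the sum was 6.90 to 103 CPM in the control mice, 0.949 to 36.5 at 10 mg/kg and 0.420 to 19.3 at 20 mg/kg, and 5 of the 5 tested were lower at an unadjusted p under 0.05 at 20 mg/kg, with 0 passing. The part of these differences in the levels of the conjugation genes was not tested.

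Of the remaining lists, 0 genes passed at either dose. The summed levels in the control, 10 mg/kg and 20 mg/kg mice were 1824 to 2790, 2067 to 3436 and 1972 to 2571 CPM for the thick ascending limb (5 markers), and 627 to 1036, 672 to 817 and 577 to 655 CPM for the distal convoluted tubule (4 markers). Hepatocyte markers, which the kidney also expresses in part, summed to 83.4 to 157, 116 to 147 and 121 to 202 CPM (8 markers). Podocyte markers (4) summed to 402 to 453, 369 to 419 and 420 to 555 CPM, and like those of the distal convoluted tubule did not overlap between the doses. Collecting duct, endothelial, immune, adrenal cortex and uroepithelial markers overlapped between all groups.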

How the data were processed

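Kidney poly(A) RNA-Seq libraries (12, 1 per mouse) were read from the deposited counts per gene, which the authors made with STAR 2.7.5c on GRCm39 and HTSeq 1.99.2 after quality control with FastQC 0.11.9, per the labels. The annotation release, strand setting and use of molecular identifiers are not given in the sources used here, so antisense overlap could not be told apart. Lines of the counting tool that name no gene (5) were left out. Gene IDs were matched to GENCODE vM39 (99% of IDs, 99.95% of counts). Members and gene lists were chosen with earlier results of these data known, and p-values set a difference between groups against the spread between mice.

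Counts were fitted with edgeR 4.0.16 in R 4.3.3 (TMM, filterByExpr, a mean per group over all 12 libraries, quasi-likelihood test, tested on simulated data). DESeq2 1.42.0 and limma-voom 3.58.1 were alternatives, with others for scaling, filter, libraries, replicate number and mitochondrial share. Members named were those passing, the 6 UGT, 6 GST and 4 SULT genes highest per kb, the 3 largest non-overlapping changes per dose and direction at 1 CPM or more, and those with an unadjusted p under 0.01. Members with few counts had wide intervals. The control, 10 mg/kg and 20 mg/kg comparisons share control mice. The results of 1 motif and 1 factor are not reported here.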

Additional observations from a re-analysis of the deposited data

Results flagged for a closer look

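In 66 sets of 4 mice (the named members and the 3 summed levels in each group), 7 had a mouse far from the other three by Dixon's test at the 95% level. Chance flags about 1 in 20 such sets, and 5 of the 7 values came from libraries under 10% mitochondrial counts. Gstt2 was at 560 CPM in mouse 3 of the 20 mg/kg group, where the others were at 269 to 317. Gstm5 was at 82.1 CPM in mouse 3 of the 10 mg/kg group, where the others were at 61.2 to 62.9, and Gstz1 was at 386 CPM in the same mouse, where the others were at 323 to 328. Gstp1 was at 122.5 CPM in control mouse 2, where the others were at 77.3 to 82.9. Gstz1 was at 351 CPM in control mouse 3 against 331 to 334, Sult1b1 at 4.60 CPM in mouse 1 of the 10 mg/kg group against 6.00 to 6.28, and Ugt2b37 at 31.7 CPM in mouse 2 of the 20 mg/kg group against 53.1 to 56.5. The mitochondrial share of these libraries was 5.54%, 4.55%, 5.77%, 17.55%, 3.53% and 23.4% in that order of mice, and its part in these values was not tested.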

How the results depend on the processing

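In all 4 comparisons 0 members also passed with RLE, upper-quartile or no scaling, DESeq2, limma-voom, mitochondrial genes removed, an adjusted p under 0.05, and with each library left out (0 to 0). The non-overlap at 20 mg/kg depended on scaling. Mouse 1 of that group had 4589 Gstt2 counts of 18016817, and control mouse 2 had 5436 of 19639212, a higher share. For Gstt3, mouse 2 of that group had 370 of 18184888, against 422 in control mouse 2, again a higher share. For Gstm1, mouse 1 of that group (11166) and control mouse 2 (12172) had almost equal shares. With 10 counts in every library 33 of 40 members were tested, without Gstp3, and 0 passed. With only the groups compared, run for the 3 comparisons of single groups, 0 passed, with 39 members tested at 20 mg/kg. Without a filter on low counts 2 members passed at 20 mg/kg (Gstp3, Gstt2), 1 between the doses (Gsta2) and 1 for both doses together (Gstt2). With the mitochondrial share as a term 4 passed at 20 mg/kg and 1 for both doses. The replicate block called 0 members. Replicate numbers did not pair the mice, since same-numbered mice had correlations of -0.330 to 0.317, and the block called 27 genes at 20 mg/kg against 52 without it. The causes were not tested. Leaving out the 4 libraries under 10% mitochondrial counts was chosen after seeing the data.

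Of 840 alternatives for 40 log2 fold changes in the text, 810 kept direction and call, 4 gained a call and 26 changed sign, in 11 of the 40. At 10 mg/kg, Gstm1 was 0.0028 without scaling and 0.0063 with the mitochondrial share. That share gave Gstz1 -0.029 at 10 mg/kg and Gstp1 0.069 at 20 mg/kg. Without the 4 libraries, changes at 10 mg/kg were 0.11 for Gstm1, -0.090 for Gstm5, -0.32 for Gstp3, -0.060 for Gstz1, 0.080 for Ugt2b34 and 0.0095 for Ugt3a1. With 1 library left out, changes at 10 mg/kg ran from -0.055 to 0.061 for Gstm1, -0.067 to 0.085 for Gstm5, -0.15 to 0.86 for Gstp3, -0.051 to 0.036 for Gstz1, -0.062 to 0.13 for Sult1a1, -0.042 to 0.11 for Sult1d1 and -0.051 to 0.24 for Ugt2b37. At 20 mg/kg they ran from -0.23 to 0.13 for Gstp1 and -0.14 to 0.045 for Sult1d1. The 78 alternatives for the summed levels moved no ratio of group means beyond the spread between mice. They did not cover the separation of the GST sum at 20 mg/kg, which depended on scaling between libraries. By library totals alone, control mouse 2 (2058 CPM, TMM factor 1.067) lies above mouse 2 of the 20 mg/kg group (2125 CPM, TMM factor 0.919). Members with few counts, such as Ugt1a2 and Gstp3, allow only large changes to be seen.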
